A study of Homo sapiens with 6 samples.

Results

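The mitochondrial protein import machinery was examined by ribosome profiling of K562, a cell line from human chronic myelogenous leukemia. Its members were taken by gene symbol alone, as every listed gene named TOMM or TIMM with a number, together with GRPEL1, GRPEL2, DNAJC19, PAM16, PMPCA, PMPCB, CHCHD4, GFER, SAMM50, MTX1 and MTX2. This gave 35 genes of 19330 in the table. Ribosome profiling (Ribo-Seq) sequences the mRNA fragments that ribosomes protect from nuclease, so that footprints on a coding sequence (CDS) report its ribosome occupancy. Cells received the lentiviral vector pLentiCRISPRv2 with a guide RNA against N6AMT1 (sgN6AMT1) or, as control, guides against olfactory receptor genes (sgCtrl). The labels name these control targets as OR11A1 and OR2M49, while the methods have OR2M4 for the latter. Both groups went through puromycin selection for 48 h, begun 48 h after infection, and were harvested 10 days after infection. Each group had 3 libraries. They were made from pools of transduced cells, and which control guide each sgCtrl library carried is not given in the sources used here. The figure legends of the study give the 3 libraries of a group as independent transductions.

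Nearly all mitochondrial proteins are made in the cytosol and imported. The translocase of the outer membrane (TOM) receives precursors, and the sorting and assembly machinery (SAM) inserts beta-barrel proteins into that membrane. In the intermembrane space the MIA pathway folds cysteine-rich proteins, and small TIM chaperones escort hydrophobic precursors to SAM or to TIM22, which inserts metabolite carriers into the inner membrane. Precursors with a presequence cross the inner membrane through TIM23, are pulled in by the presequence translocase-associated motor (PAM), and are cut by the mitochondrial processing peptidase (MPP). N6AMT1 is a methyltransferase whose known substrates include the translation release factor eRF1, the protein that reads stop codons.

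The libraries held 1821356 to 2969736 footprints, of which 6655 to 10638 lay on import genes. N6AMT1 itself had 25, 24 and 34 counts in sgCtrl, against 10, 9 and 8 in sgN6AMT1. Its log2 fold change was -1.51 (SE 0.31, adjusted p = 6.69e-05, edgeR's quasi-likelihood test, adjusted over all genes tested by the Benjamini-Hochberg method). All 9 erythroid markers of K562 cells had counts, and their summed level was 27284 to 28786 CPM, the footprint count relative to library size. Markers of B cells summed to 0 to 1.51 CPM, of T cells to 27.6 to 39.0 CPM, of fibroblasts to 31.6 to 42.4 CPM and of epithelia to 162 to 195 CPM. EPCAM and CD3D carried nearly all of the epithelial and T cell sums, and COL1A2 most of the fibroblast sum. MS4A1 of B cells, CD2 of T cells and KRT5 of epithelia were at 0. Library sizes behind CPM were scaled by trimmed mean of M values (TMM). All fold changes are sgN6AMT1 over sgCtrl. Only footprints were used here, so a change in mRNA and a change in ribosomes per mRNA cannot be told apart. The study also made RNA-Seq from the same lysates and reported translation efficiency, which is not used here. Since cells were pooled, a change in the share of cells expressing a gene cannot be told apart either. Import itself was not measured here. From newly made proteins in whole cells and in isolated mitochondria, the paper reported no difference in mitochondrial import.

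Depletion of N6AMT1 was accompanied by lower occupancy of the chaperone TIMM10, the oxidoreductase CHCHD4, the channel TOMM40, the receptor TOMM20, the motor scaffold TIMM44 and TIMM23B. Occupancy was higher on the small TOM subunits TOMM7 and TOMM6 and on TIMM9, the partner of TIMM10. Thus 9 of the 34 tested import genes (26.5%) passed an adjusted p of 0.05 in edgeR's quasi-likelihood test. Over all genes tested the share was 26.9%. The 6 lower genes stand beside a background of 13.9% of all genes lower, and the 3 higher genes beside 12.9% higher. In this fit the machinery was therefore called about as often as genes in general. Before correction, 12 import genes (35.3%) had p under 0.05, against 36.8% of all genes tested. The groups did not overlap in CPM for 11 import genes, or 32.4%, against 37.5% of all genes tested. DESeq2 called fewer, 6 of 34 (17.6%) against a background of 12.4%. Of these, 4 were lower and 2 higher, beside 6.91% and 5.49% of all genes. The DESeq2 background is over 10716 genes and that of edgeR over 9202, so the 2 backgrounds are not on the same set of genes.

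Most import genes moved little. Their median log2 fold change was -0.03, with 20 negative and 14 positive values, beside 0.01 for all genes tested. The median size of the change, regardless of sign, was 0.12 for import genes and 0.21 for all genes on the log2 scale. The genes compared were not matched for footprint count, and genes with few counts have less certain fold changes. Whether import genes were more stable than genes of similar count was therefore not tested. As a group the import genes took 0.359% ± 0.00798 of all footprints in sgCtrl and 0.365% ± 0.00322 in sgN6AMT1 (SD, n = 3). The sign of the median log2 fold change depended on scaling, since it was 0.03 when plain total counts were used. The median of all genes was then 0.06, so import genes lay below it with either scaling. The full range, from -0.84 for TIMM10 to 0.56 for TIMM9, was spanned by the members of a single chaperone complex.

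**Figure D1:**
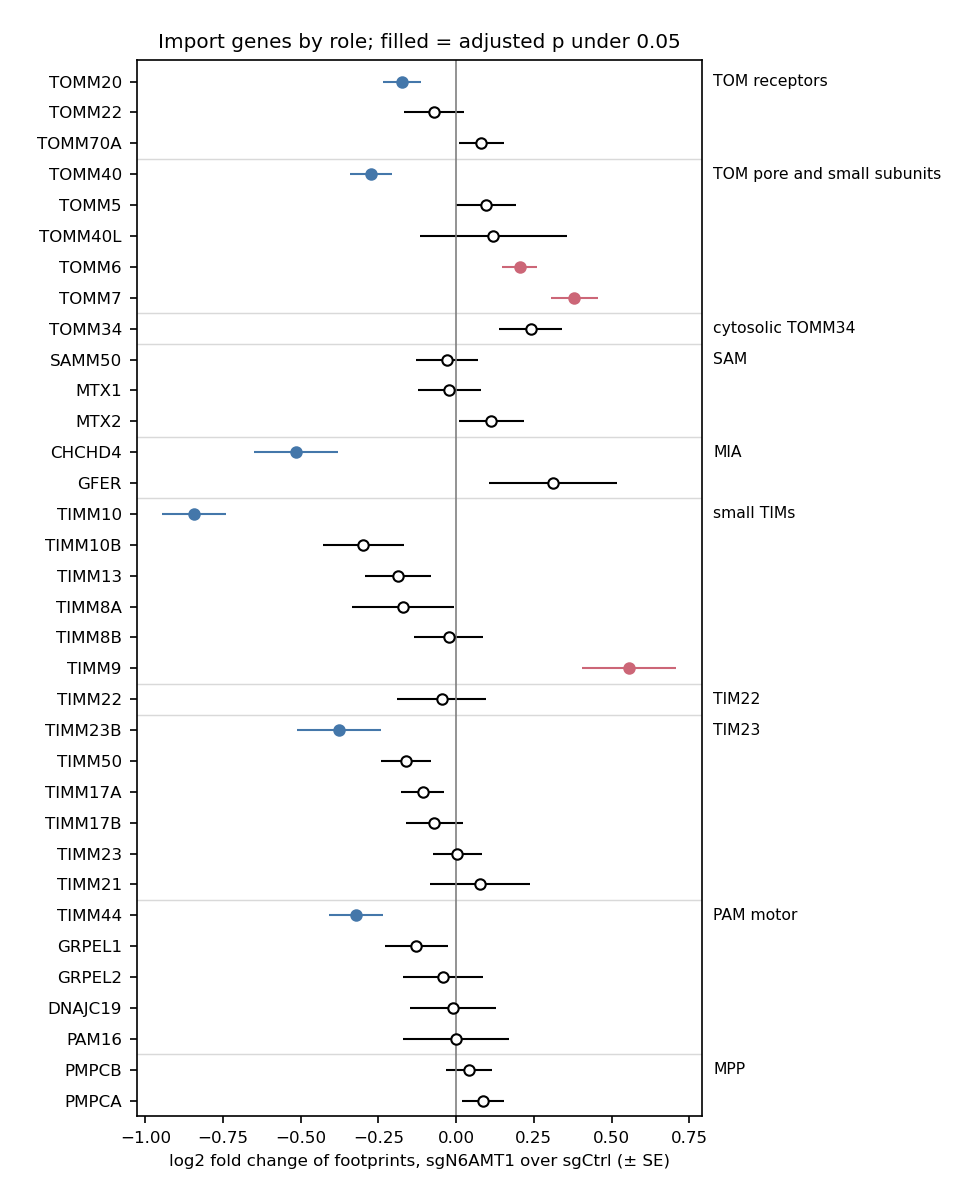
Log2 fold change of footprints (sgN6AMT1 over sgCtrl, horizontal axis, with SE) for each of the 34 tested import genes, arranged by role on the vertical axis, with filled points for the 9 genes past an adjusted p of 0.05. TIMM10 at -0.84 and TIMM9 at 0.56 lie at opposite ends, and most other genes lie close to 0.

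Because eRF1 reads the stop codon, the stop codons of the called genes are shown with the last coding bases before them and the first bases after them. The sequences come from the listed transcripts in the GENCODE release 44 annotation of GRCh38, and capitals mark the stop codon. TIMM23B is not shown because its listed transcript was not matched in that release. The annotated transcript of TIMM9 ends at its stop codon. For CHCHD4 and TOMM7 the listed CDS is not that of the MANE Select reference transcript, so the stop codon shown may not be the one mainly used.
TIMM10: tctgggcctgcaTGAggtccctgt
CHCHD4: gagggatcaagtTAAtgaaggcca
TIMM44: gagcagattctcTGAgtgtggtgc
TOMM40: ctcaccatcggcTGAgccctcctg
TOMM20: gatgatgtggaaTGAgaaacaaat
TIMM9: ggccaaccacgaTAG
TOMM7: ctctggctcggaTAAgagatggga
TOMM6: cagccaggggtgTAGccaagtaga

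TGA ended 4 of the 5 lower genes shown, and none of the 3 higher ones. Among the 31 tested import genes with a CDS in the annotation, 14 (45.2%) end in TGA, 11 (35.5%) in TAG and 6 (19.4%) in TAA. Over all 8589 genes tested with a CDS the shares were 49.1%, 21.2% and 29.7%. The median log2 fold change of import genes was -0.12 for TGA, -0.02 for TAG and 0.08 for TAA. Over all genes it was 0.01, 0.03 and -0.01. These are descriptions of few genes and carry no test. The share of TGA among all genes called lower or higher was not computed, so the count in called import genes has no background. Averaged over transcripts, the paper found ribosome occupancy at stop codons to be the same in both groups.

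Among the small TIM chaperones of the intermembrane space, TIMM10 fell and its partner TIMM9 rose. TIMM10 (chromosome 11, 57528641 to 57530734, minus strand) had 113, 105 and 116 CPM in sgCtrl and 56.1, 69.1 and 59.7 CPM in sgN6AMT1. Every sgN6AMT1 library lay far below every control. Its level fell by 44.6%, from 111 ± 5.29 to 61.6 ± 6.72 CPM (SD, n = 3), a log2 fold change of -0.84 (SE 0.10, adjusted p = 6.35e-11, edgeR's quasi-likelihood test). TIMM9 (chromosome 14, 58409034 to 58427187, minus strand) had 24.6, 24.1 and 27.1 CPM in sgCtrl and 42.5, 37.6 and 29.9 CPM in sgN6AMT1. The groups did not overlap, although the third sgN6AMT1 library came close to the controls. The log2 fold change of TIMM9 was 0.56 (SE 0.15, adjusted p = 0.00272 in edgeR's test). The call on TIMM9 was lost in DESeq2 (adjusted p = 0.0918) and in edgeR when sgN6AMT1 replicate 1 was left out (adjusted p = 0.0529 at a log2 fold change of 0.44).

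The other small TIMs did not pass the threshold. TIMM10B, a peripheral subunit that docks the chaperone on TIM22, came closest with 47.7, 43.8 and 48.3 CPM in sgCtrl and 34.6, 35.9 and 43.4 CPM in sgN6AMT1. Its groups did not overlap, but the log2 fold change of -0.30 had an adjusted p of 0.0760 in edgeR's test. TIMM8A and TIMM13 form an alternative chaperone pair, and mutations in TIMM8A cause deafness-dystonia syndrome. TIMM8A was at 29.1, 25.5 and 35.0 CPM in sgCtrl and 20.2, 27.6 and 31.5 CPM in sgN6AMT1. TIMM13 was at 92.9, 83.4 and 78.9 CPM in sgCtrl and 64.4, 75.6 and 85.2 CPM in sgN6AMT1. For both genes the groups overlapped, with log2 fold changes of -0.17 and -0.19. TIMM8B was at 72.8, 70.3 and 60.1 CPM in sgCtrl and 67.1, 71.3 and 61.3 CPM in sgN6AMT1, which also overlapped. The median log2 fold change of the 6 small TIMs was -0.18, and 5 of the 6 were negative.

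In the MIA pathway, CHCHD4 fell while its recycling enzyme GFER did not pass the threshold. CHCHD4 (chromosome 3, 14112077 to 14124870, minus strand), the oxidoreductase that forms disulfides in incoming small TIMs, had 43.7, 41.4 and 49.3 CPM in sgCtrl and 29.8, 33.3 and 29.9 CPM in sgN6AMT1. All controls were higher than all depleted libraries. The mean level went from 44.8 ± 4.08 to 31.0 ± 1.98 CPM, a log2 fold change of -0.52 (SE 0.14, adjusted p = 0.00189, edgeR's quasi-likelihood test). GFER, the sulfhydryl oxidase that re-oxidizes CHCHD4, was at 15.6, 17.6 and 12.3 CPM in sgCtrl and 18.4, 15.1 and 25.0 CPM in sgN6AMT1. These ranges overlapped, and the log2 fold change of 0.31 had an adjusted p of 0.271 in edgeR's test.

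**Figure D2:**
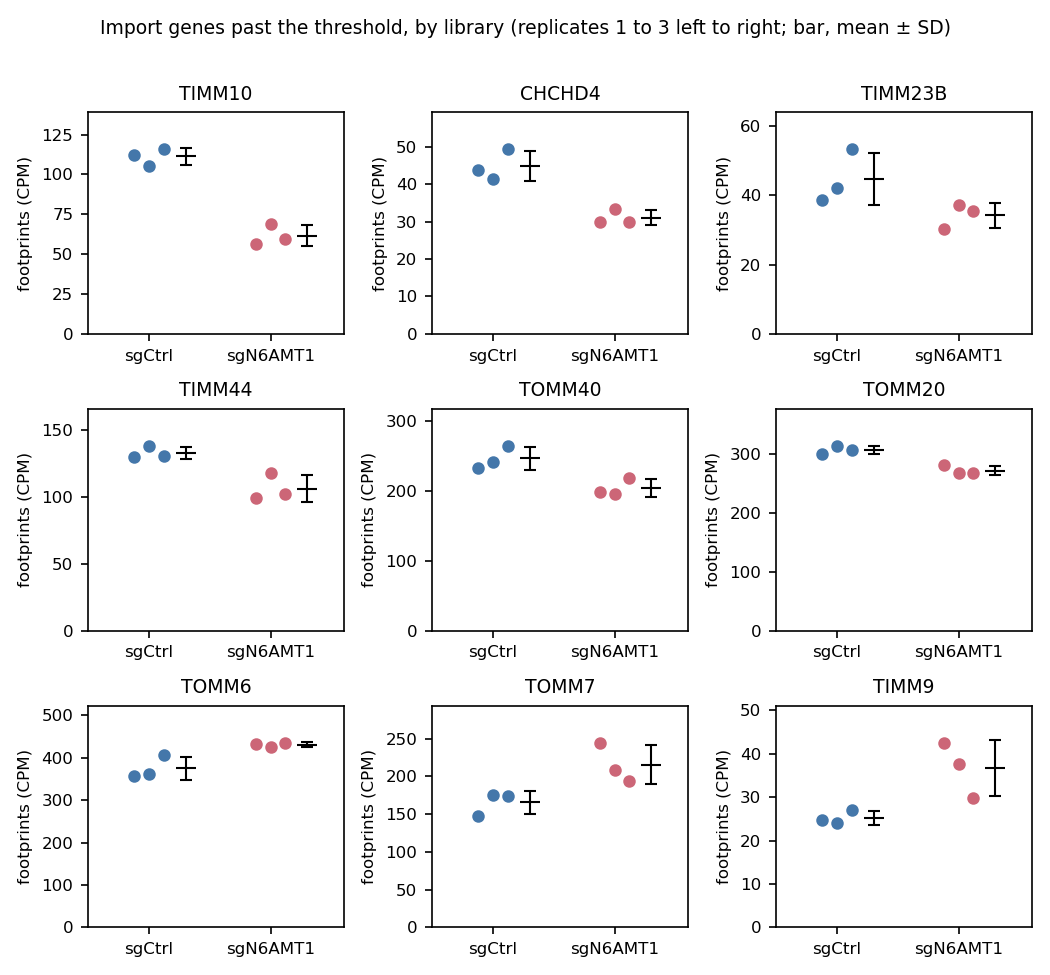
Footprints in CPM (vertical axes, starting at 0) in each sgCtrl and sgN6AMT1 library for the 9 import genes past the threshold, with bars at the mean and SD of 3 libraries. The 2 groups do not overlap for any of the 9 genes, which were picked on these same libraries, so the separation is not further support. The largest fold difference is at TIMM10 (111 against 61.6 CPM on average).

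Within the TOM complex, the channel and a receptor fell and 2 small subunits rose. TOMM40 (chromosome 19, 44891220 to 44903688, plus strand), the beta-barrel pore, had 234, 242 and 265 CPM in sgCtrl and 198, 197 and 219 CPM in sgN6AMT1. The groups were separate, and the log2 fold change was -0.27 (SE 0.067, adjusted p = 8.56e-04, edgeR's test). TOMM20 (chromosome 1, 235109341 to 235128837, minus strand), the presequence receptor, had 300, 314 and 306 CPM in sgCtrl and 281, 267 and 268 CPM in sgN6AMT1. The groups did not overlap, but the shift was small, with a log2 fold change of -0.18 (SE 0.061, adjusted p = 0.0238 in edgeR's test). The TOMM20 call was lost in DESeq2 (adjusted p = 0.0962) and in edgeR with plain total counts (0.138). It was also lost without sgCtrl replicate 2 (0.101), sgN6AMT1 replicate 2 (0.112) or sgN6AMT1 replicate 3 (0.0513).

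TOMM7 (chromosome 7, 22812973 to 22822791, minus strand), a small subunit also needed to hold the kinase PINK1 at the outer membrane, had 148, 175 and 174 CPM in sgCtrl and 245, 209 and 194 CPM in sgN6AMT1. Each sgN6AMT1 library was above each control, most of all the first. The level rose from 166 ± 15.5 to 216 ± 26.1 CPM, a log2 fold change of 0.38 (SE 0.075, adjusted p = 3.15e-05, edgeR's test). TOMM6 (chromosome 6, 41787694 to 41789895, plus strand), a small subunit that stabilizes the complex, had 358, 361 and 405 CPM in sgCtrl and 433, 425 and 435 CPM in sgN6AMT1. The sgN6AMT1 libraries were close together and above all controls, with a log2 fold change of 0.20 (SE 0.057, adjusted p = 0.00392 in edgeR's test). Removing the trends of fold change with CDS length and GC content brought TOMM6 to 0.03 (adjusted p = 0.691), and the median of the pore and small subunits from 0.12 to -0.01.

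The remaining TOM genes did not pass. The central receptor TOMM22 had a log2 fold change of -0.07 (89.1 ± 5.17 CPM in sgN6AMT1, 94.0 ± 3.16 in sgCtrl). TOMM70, the receptor for carrier precursors, listed as TOMM70A, stood at 0.08 on the same scale. TOMM5, another small subunit, had a log2 fold change of 0.10, and 10.7% of the 28-base stretches of its CDS also occur in other listed genes. TOMM40L, a paralog of the pore, was among the least occupied, at 10.5, 10.7 and 14.8 CPM in sgCtrl and 14.03, 10.8 and 14.1 CPM in sgN6AMT1. TOMM20L, a paralog of TOMM20, had 0 of 13431376 footprints over all libraries, which allows up to 0.223 CPM, and could not be tested. The cytosolic cochaperone TOMM34 had 75.3, 78.6 and 75.4 CPM in sgCtrl and 84.2, 92.5 and 95.5 CPM in sgN6AMT1. Its groups did not overlap, yet its log2 fold change of 0.24 had an adjusted p of 0.0679 in edgeR's test.

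At the inner membrane, TIMM44 and TIMM23B fell and the core channel TIMM23 stayed close to its control level. TIMM44 (chromosome 19, 7926718 to 7943666, minus strand), which tethers the motor to the channel, had 130, 138 and 131 CPM in sgCtrl and 99.1, 118 and 102 CPM in sgN6AMT1. The groups were separate, and the log2 fold change was -0.32 (SE 0.087, adjusted p = 0.00239, edgeR's test). TIMM23B, a near copy of TIMM23 on chromosome 10, had 38.7, 42.1 and 53.2 CPM in sgCtrl and 30.2, 37.2 and 35.3 CPM in sgN6AMT1. The groups did not overlap, with the highest control set by replicate 3. The log2 fold change of TIMM23B was -0.38 (SE 0.14, adjusted p = 0.0282 in edgeR's test). It missed the threshold in DESeq2 (adjusted p = 0.218), and in edgeR with plain total counts (0.0661), without sgCtrl replicate 3 (0.229, at a log2 fold change of -0.25) and without sgN6AMT1 replicate 1 (0.153).

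TIMM23B and TIMM23 share sequence, so their counts are uncertain. Of the 603 stretches of 28 bases in the TIMM23 CDS, 224 (37.1%) also occur in TIMM23B. TIMM23 itself was at 153 ± 2.54 CPM in sgCtrl and 153 ± 10.8 CPM in sgN6AMT1. With the counts of both genes added, an alternative chosen after seeing the data, the sums were 387, 559 and 418 in sgCtrl and 415, 466 and 328 in sgN6AMT1. Their log2 fold change was -0.07 (SE 0.071, adjusted p = 0.481, edgeR's test).

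None of the other TIM23 and TIM22 subunits passed. TIMM17A, which lines the protein path with TIMM23, was at 213, 216 and 245 CPM in sgCtrl and 202, 207 and 216 CPM in sgN6AMT1. Its paralog TIMM17B was at 99.0, 103 and 108 CPM in sgCtrl and 94.2, 104 and 96.6 CPM in sgN6AMT1. Both overlapped between groups, with log2 fold changes of -0.11 and -0.07. The receptor TIMM50 had a log2 fold change of -0.16 (adjusted p = 0.130 in edgeR's test). TIMM21, which links TIM23 to TOM and to respiratory chain assembly, stood at 0.08, and the carrier translocase TIMM22 at -0.05. TIMM29, a further TIM22 subunit, is listed under the older symbol C19orf52 and so was not selected by symbol. It had a log2 fold change of -0.09 (SE 0.16, adjusted p = 0.715 in edgeR's test).

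The other motor, SAM and peptidase genes all overlapped between groups. The J protein DNAJC19 and the J-like protein PAM16, which regulate the motor's chaperone, had log2 fold changes of -0.01 and 0.00050. The nucleotide exchange factor GRPEL1 was at 86.9, 99.6 and 82.8 CPM in sgCtrl and 83.3, 86.4 and 78.2 CPM in sgN6AMT1. Its paralog GRPEL2 was at 49.2, 44.8 and 38.5 CPM in sgCtrl and 36.4, 44.9 and 48.3 CPM in sgN6AMT1. Neither differed beyond the spread of its libraries. The SAM channel SAMM50 had a log2 fold change of -0.03, its partner MTX1 -0.02 and MTX2 0.11. MTX1 ranged from 81.9 to 85.2 CPM in sgCtrl and from 76.9 to 87.9 CPM in sgN6AMT1, and MTX2 from 73.5 to 92.4 and from 70.03 to 101 CPM. The peptidase subunits PMPCA, which binds presequences, and PMPCB, which carries the catalytic site, had log2 fold changes of 0.09 and 0.04. PMPCA ranged from 191 to 211 CPM in sgCtrl and from 209 to 217 CPM in sgN6AMT1, and PMPCB from 167 to 174 and from 159 to 185 CPM.

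Ratios of footprints between partners or paralogs within a library do not depend on how libraries are scaled, and 9 such pairs were compared. TIMM9 over TIMM10 was 0.219, 0.229 and 0.234 in sgCtrl, against 0.758, 0.544 and 0.5 in sgN6AMT1. The controls were nearly identical and all depleted libraries were higher. TIMM9 and TIMM10 had each already separated the groups, in opposite directions. The separation of their ratio, and its exact p, were thereby fixed and are not further support. The mean ratio went from 0.227 ± 0.00777 to 0.601 ± 0.138, a log2 difference of 1.38 (2-sided exact permutation p = 0.1, adjusted p = 0.45 over the 9 pairs). CHCHD4 over GFER was 3.05 ± 0.851 in sgCtrl and 1.67 ± 0.504 in sgN6AMT1, again without overlap (log2 difference -0.88, exact permutation p = 0.1, adjusted p = 0.45). With 3 libraries against 3, 0.1 is the smallest p this test can give. TOMM40 over TOMM40L overlapped between groups (20.9 ± 2.62 against 15.9 ± 2.07, exact permutation p = 0.2, adjusted p = 0.6). The other pairs, TIMM17A/TIMM17B, GRPEL1/GRPEL2, TIMM8A/TIMM8B, MTX1/MTX2, PMPCA/PMPCB and TIMM8A/TIMM13, all overlapped (exact permutation p = 0.6 to 0.9, adjusted p = 0.9).

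**Figure D3:**
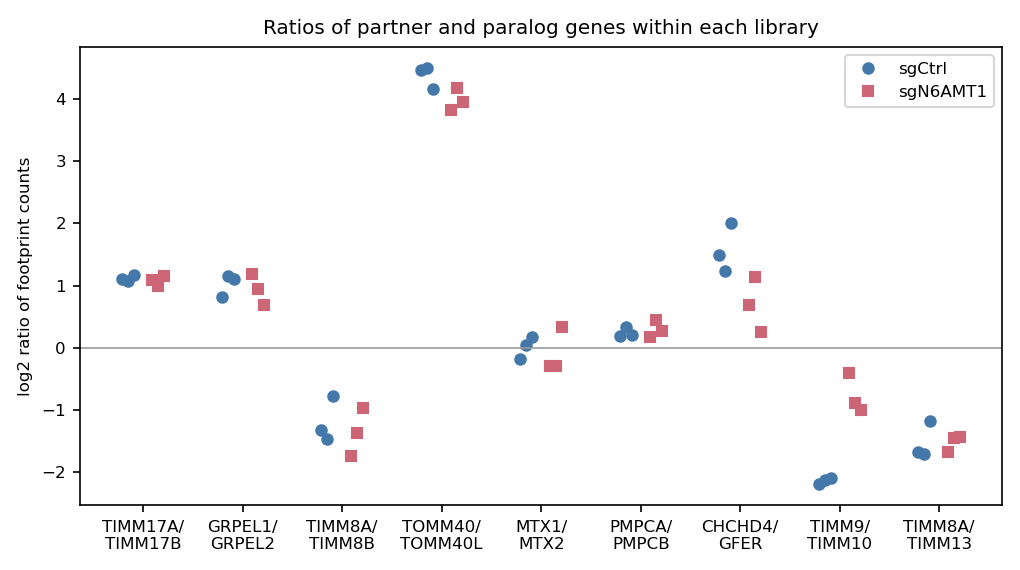
Log2 ratio of footprint counts (vertical axis) for 9 pairs of import genes (horizontal axis), with 1 point per library, circles for sgCtrl and squares for sgN6AMT1. TIMM9/TIMM10 and CHCHD4/GFER are the 2 pairs whose groups do not overlap. For TIMM9/TIMM10 this follows from the opposite separation of each gene and is not further support.

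In CPM per kilobase of CDS, levels of the import genes in sgCtrl covered a wide range. TOMM6 was highest at 1665 ± 118, followed by TOMM20 at 700 ± 15.3. TOMM7 (438 ± 41.1), TIMM17A (435 ± 33.7) and TIMM10 (408 ± 19.4) came next and did not differ beyond their SD. At the low end were TIMM21 (36.1 ± 6.74), GFER (24.5 ± 4.29) and TOMM40L (13.0 ± 2.60). On this scale TIMM10 went from 408 to 226 and TIMM9 from 93.7 to 136, so the gap between the chaperone partners narrowed. The listed CDS of TOMM7 and TOMM5 is longer than that of the MANE Select reference transcript (378 against 168 and 297 against 156 bases), and with the latter their sgCtrl levels would be 986 and 620. Import genes are short, with a median CDS of 630 bases against 1395 for all genes tested, and 13 of 31 (41.9%) have at most 500 bases against 9.29% of all genes. The median log2 fold change of these short import genes was -0.07, and that of all short genes 0.04.

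**Figure D4:**
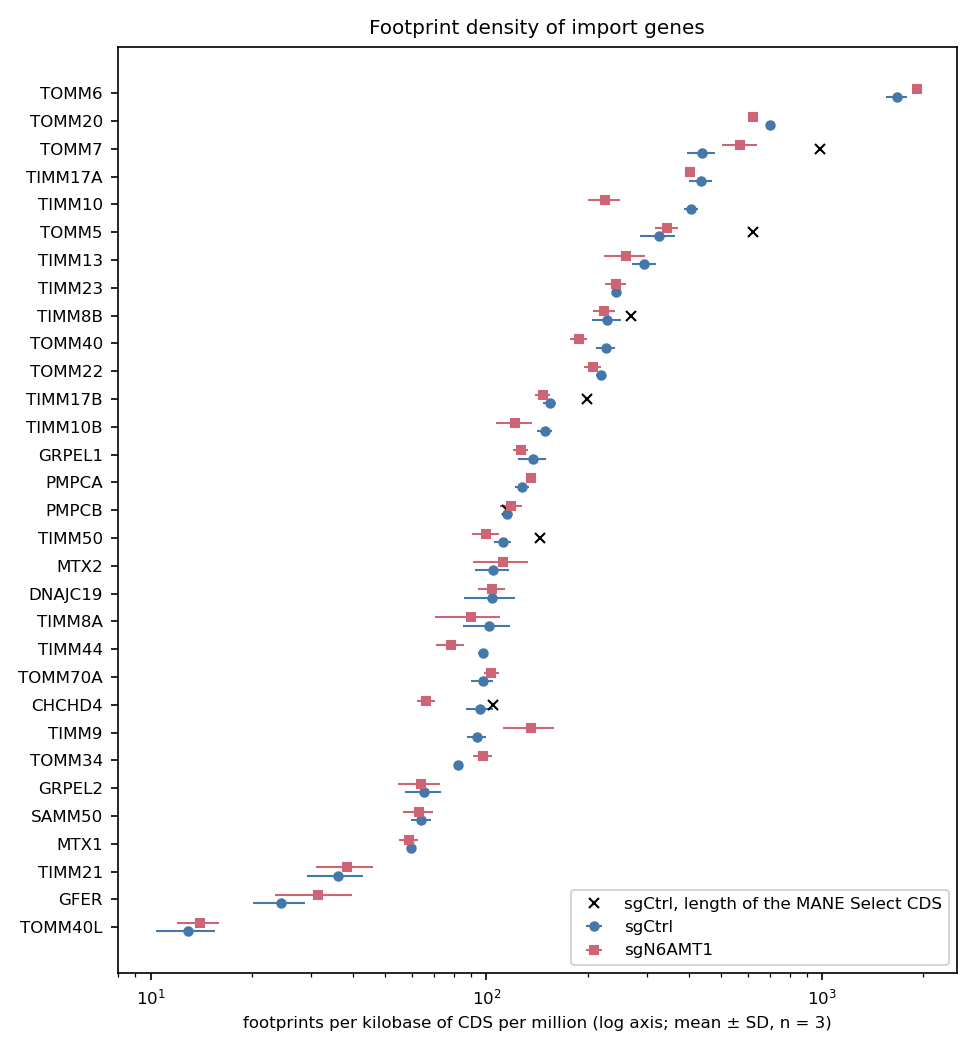
Footprints in CPM per kilobase of CDS (horizontal log axis, mean and SD of 3 libraries) for each import gene with counts and an annotated CDS, with circles for sgCtrl, squares for sgN6AMT1 and crosses for the sgCtrl level at the MANE Select CDS length. TOMM6 is highest at 1665, TOMM40L lowest at 13.0, and TIMM10 moves from 408 to 226.

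Genes that act around the import complexes, as cytosolic or matrix chaperones, peptidases, insertases or membrane anchors, were also tallied. Of 36 tested, 9 (25.0%) passed lower and 2 (5.56%) higher in edgeR's test, beside 13.9% and 12.9% of all genes. In either direction the share was 30.6%, against 26.9% of all genes, and the median log2 fold change was -0.08. HSPA9, the mitochondrial Hsp70 that drives the PAM motor, was at 1438, 1462 and 1384 CPM in sgCtrl and 1086, 1090 and 1092 CPM in sgN6AMT1. All depleted libraries lay below all controls, and the log2 fold change was -0.39 (SE 0.046, adjusted p = 1.50e-11, edgeR's test). HSPA8, the cytosolic Hsp70 that carries precursors, fell with a log2 fold change of -0.36 (adjusted p = 7.11e-13 in edgeR's test). TIMMDC1, a TIM-like protein that acts in complex I assembly, went from 60.3 ± 1.61 to 20.5 ± 4.41 CPM, a log2 fold change of -1.56 (SE 0.14, adjusted p = 2.52e-16, edgeR's test). The others called lower were DNAJC11, HSP90AB1, HSPD1, MTCH2, VDAC1 and OXA1L, and those called higher were HSP90AA1 and VDAC2. In DESeq2 the calls on VDAC1 (adjusted p = 0.0645), VDAC2 (0.182) and OXA1L (0.204) were lost.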

How the data were processed

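Ribo-Seq libraries were 3 sgCtrl and 3 sgN6AMT1. The authors trimmed reads with cutadapt, removed rRNA and tRNA reads after HISAT2 mapping to GRCh38 (release 84), mapped the rest to canonical transcripts with Bowtie2 and deposited whole-number footprint counts per transcript. Their methods describe 2 ways of counting, and which of them made the table is not given. Without molecular identifiers, the floor for a gene without counts covers counting error only. The SEs come from the fit and also cover variation between libraries of the same group.

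Counts were tested with edgeR 4.0.16 (R 4.3.3): TMM factors, filterByExpr (minimum count 10), robust quasi-likelihood fit on group, Benjamini-Hochberg adjustment over the 9202 genes tested, threshold 0.05. The filter removed 10128 genes with 0.465% of counts. DESeq2 1.42.0, limma 3.58.1, other scaling and filters, removal of CDS length and GC trends, the replicate block and leaving out each library were alternatives. Ratios of pairs used 2-sided exact permutation tests on log2 values. The fits were tested on simulated data. Listed transcripts were matched to GENCODE release 44 without version (32 of 35 import genes).

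The members, roles and lists were chosen with earlier results of these data known. Library values are given for genes past the threshold and genes of the pairs, and also for TIMM10B and TOMM34, chosen after their values were seen because their groups did not overlap. Among surrounding genes, the 3 with the smallest adjusted p, HSPA9 among them, are described. Libraries of the same group differed by a chi-square of 1.25 to 1.68 per degree of freedom and those of different groups by 4.89 to 7.04, so no library was counted as a duplicate.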

Additional observations from a re-analysis of the deposited data

How the results depend on the processing

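Of the 9 called import genes, TIMM10, CHCHD4, TIMM44, TOMM40 and TOMM7 passed the threshold in all 16 alternatives, and none of the 9 changed direction in any. The median log2 fold change of import genes, -0.03, was 0.0283 with plain total counts, -0.0806 with the trends of CDS length and GC content removed, and -0.0788 to -0.0142 when 1 library was left out. Removing the trends raised the number of lower import genes from 6 of 34 to 10 of 31. Over all genes tested, 1519 of 8607 were then lower, against 1282 of 9202 in the main fit. A filter at a mean of 50 counts left out GFER, TOMM40L and N6AMT1, and removal of the trends left out PAM16, TIMM22 and TIMM23B, which had no matched CDS. Over all genes, DESeq2 called 1329 of 10716 tested where edgeR called 2473 of 9202. Plain total counts gave 1560 higher and 976 lower in place of 1191 and 1282, with the median gene shifted by 0.05 on the log2 scale. Removal of the trends gave 1012 higher and 1519 lower. Leaving out a library left 1859 to 2322 genes called. The libraries share replicate numbers, but same-numbered libraries did not deviate together (correlations of -0.139, 0.0351 and 0.00326 over 5874 genes). With the replicate number as a block, 2390 genes and 9 import genes were called, and the median of import genes was -0.03. Of the 25 import genes not called, 13 changed sign in some alternative and 6 passed in some. These 6 were TOMM34 (3 of 16 alternatives), TIMM10B and TIMM50 (2 each), and GRPEL1, TIMM13 and TIMM17A (1 each). All of them but TOMM34 were lower. The TIMM23 and TIMM23B sum was the alternative added after seeing the data. Genes with few counts, such as GFER and TOMM40L, had SEs of 0.21 and 0.24 on the log2 scale and changes of that size or somewhat larger, such as 0.31 for GFER, did not pass at this depth.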
